A study of Mus musculus with 2 samples.

Results

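Th17-polarized lymphocytes were set against Th0 lymphocytes on 1 two-colour microarray, and the comparison was read across 17501 mouse genes, which are all genes of the series. These are the genes named by the 26926 of 36547 probes that carry exactly 1 gene symbol in the platform's annotation, with the probes of a gene averaged on the log2 scale. Per the labels, the Th17 RNA came from lymphocytes of a TRP-1 mouse, where TRP-1 is the name of a melanocyte protein. The series concerns tumour-specific Th17 cells in melanoma. RNA of the Th17 population carried the dye Cy5 and RNA of the Th0 population Cy3. A second array of the same design compared Th1-polarized with Th0 cells and is used here only for values side by side. The cytokines of each culture, the age and sex of the animals, the number of animals and the origin of the Th0 RNA on each array are not given in the sources used here. Because the comparison has 1 array, with no replicate and no dye swap, no value was tested, and this number limits the precision.

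Th17 cells are helper T cells that arise when naive CD4 T cells are activated in the presence of TGF-beta and interleukin 6, and interleukins 21 and 23 sustain them. The factors STAT3, IRF4 and BATF help to turn on the genes of interleukins 17A, 17F, 21 and 22, and of the chemokine CCL20, which act on epithelium and call in neutrophils. Th0 is the usual name for T cells activated without a set of cytokines that directs their fate. Cytotoxic granules, with perforin and granzymes, are better known from CD8 T cells, NK cells and some Th1 cells.

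The 5 genes taken as markers of the Th17 fate were Il17a, Il17f, Il22, Il21 and Ccl20. The 250 bases before the annotated start of 3 of them (RefSeq, GRCm38.p6) are shown because they hold AGGTCA, a half-site bound by many nuclear receptors, on one strand or the other. Capitals mark the motif, which reads TGACCT where it lies on the opposite strand.
Il17a, chr1:20730655-20730904, plus strand: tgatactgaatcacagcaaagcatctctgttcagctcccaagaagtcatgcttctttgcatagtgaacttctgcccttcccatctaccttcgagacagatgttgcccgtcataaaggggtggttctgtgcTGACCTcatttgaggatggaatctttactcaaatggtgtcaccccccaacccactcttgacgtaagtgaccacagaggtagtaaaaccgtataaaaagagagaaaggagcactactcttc
Il17f, chr1:20784271-20784520, minus strand: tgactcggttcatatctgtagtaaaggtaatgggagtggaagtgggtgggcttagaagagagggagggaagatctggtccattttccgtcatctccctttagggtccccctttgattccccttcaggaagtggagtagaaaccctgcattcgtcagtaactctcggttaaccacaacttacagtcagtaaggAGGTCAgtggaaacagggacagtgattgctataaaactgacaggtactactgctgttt
Ccl20, chr1:83116516-83116765, plus strand: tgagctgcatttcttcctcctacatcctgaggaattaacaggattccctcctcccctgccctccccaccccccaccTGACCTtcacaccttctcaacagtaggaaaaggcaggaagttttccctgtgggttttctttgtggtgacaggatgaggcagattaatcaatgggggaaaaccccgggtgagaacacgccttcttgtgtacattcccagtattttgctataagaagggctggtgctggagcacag
The motif begins 120 bases before the start of Il17a, 58 before that of Il17f and 174 before that of Ccl20. No match was found in the same window of Il22 or Il21. Of 32851 promoter windows of this length in the reference table, 4607 hold the motif on either strand, so a match is a description of these letters and not of binding.

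Values are printed as deposited, and their direction is unsettled. The title and the dyes name Th17 over Th0, but the table states no numerator, and all 5 marker genes lay on the negative side. Read as titled, a negative value stands for less RNA in Th17 than in Th0 cells. If the ratio was inverted, it stands for more RNA in Th17 cells. Below, the negative side is also called the side of Il17a, which is correct under both readings. A gene was counted when it was at least 2-fold apart, that is, at least 1 from 0 on the log2 scale. Of the 17501 genes, 1474 (8.42%) were counted. The negative side held 966 of them (5.52% of all genes) and the positive side 508 (2.90%), which puts 65.5% of the counted genes on the side of Il17a. The share was 10.2% on the Th1 and Th0 array. Counts in the lists below are to be read beside the 5.52% and 2.90% of all genes. The middle of the distribution was narrow, with quartiles at −0.31 and 0.21 and a median of −0.03.

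The scale had a further feature that bears on single genes. The value −0.4263 was the most repeated one, held by 162 probes, and other repeated values lay away from it by the log2 of small whole-number ratios. That pattern is left by whole-number signals multiplied by 1 constant, and a probe equally bright in Cy5 and Cy3 would then read −0.43. Raising all genes by that amount, so that equal signals read 0, moves the split to 486 negative and 1429 positive genes, or 25.4% negative. The 13 widely expressed control genes then have a median of 0.40, against −0.02 as deposited, so this setting does not centre them. The constant also allows a search for values that come from a very weak channel. A gene is said here to have a whole-number match when the value of at least 1 of its probes equals a ratio of whole-number signals whose weaker side is at most 5 units. Such a match was found for 187 of the 966 negative genes (19.4%) and for 16 of the 508 positive ones (3.15%). Among genes at least 4-fold apart the counts were 90 of 220 on the negative and 4 of 116 on the positive side, and beyond 16-fold they were 30 of 38 and 0 of 9. Most genes at the far negative end thus had a match. None of the 5 marker genes had one, but the search was not complete for all of them. It stopped where the summed odds of a match by coincidence passed 0.2. For Ccl20, Il22 and Il17a it stopped before 5 units, so a weak channel was only partly searched there.

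**Figure D1:**
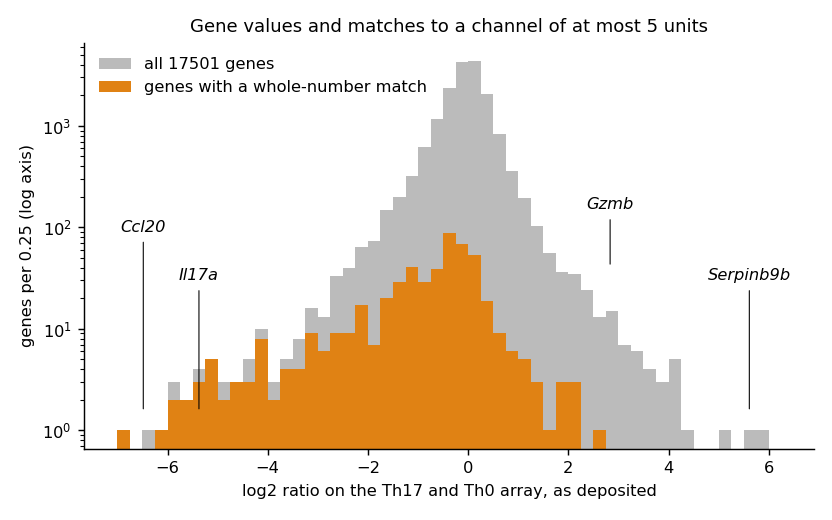
Number of genes per 0.25 of log2 ratio on the Th17 and Th0 array, on a log axis, for all 17501 genes (grey) and for genes with a whole-number match (orange). Matches fill most of the bins below −4, while Il17a at −5.37 and Ccl20 at −6.48 have none. For these genes the search stopped before 5 units.

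The genes of the Th17 effector cytokines stood at the negative end of the array. Ccl20, which draws in cells that carry the receptor CCR6, lay at −6.48 (89.5-fold) and had the second lowest value of all 17501 genes. Il22, whose product acts on epithelial cells, lay at −5.79 (55.5-fold), and Iltifb, a near-identical copy of Il22 next to it in the genome, at −3.80 over 2 probes, 1 of them with a whole-number match. Probes of such a pair may share signal. Il17a, after whose product Th17 cells are named, lay at −5.37 (41.4-fold), and its neighbour Il17f, which pairs with it in a heterodimer, at −2.38 (5.2-fold). Il21, which acts back on Th17 cells and on B cells, lay at −4.17 (18.1-fold). On the Th1 and Th0 array the same probes gave −0.67 for Ccl20, −2.53 for Il22, 0.29 for Il17a, 0.06 for Il17f and −1.23 for Il21. The difference between the arrays was not tested.

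The remaining members of the interleukin 17 family stayed within 2-fold. Il17d lay at −0.48, Il17b at −0.33, Il25 at −0.08 and Il17c at 0.27, so that 2 of the 6 family ligands were counted, both on the negative side. Of the 5 family receptors, Il17re alone was counted, at −1.10, from probes that differed (−1.92 and −0.28). Il17ra and Il17rc, which together form the receptor of interleukins 17A and 17F, lay at −0.46 and −0.45. Receptors by which T cells are held in the Th17 state were further out. Il1r1, the receptor of interleukin 1, lay at −2.17, with its 2 probes at −3.20 and −1.15, and Il23r, one chain of the interleukin 23 receptor, lay at −1.88. Ccr6 lay at −0.76, and both of its probes, at −0.89 and −0.62, were within 2-fold.

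**Figure D2:**
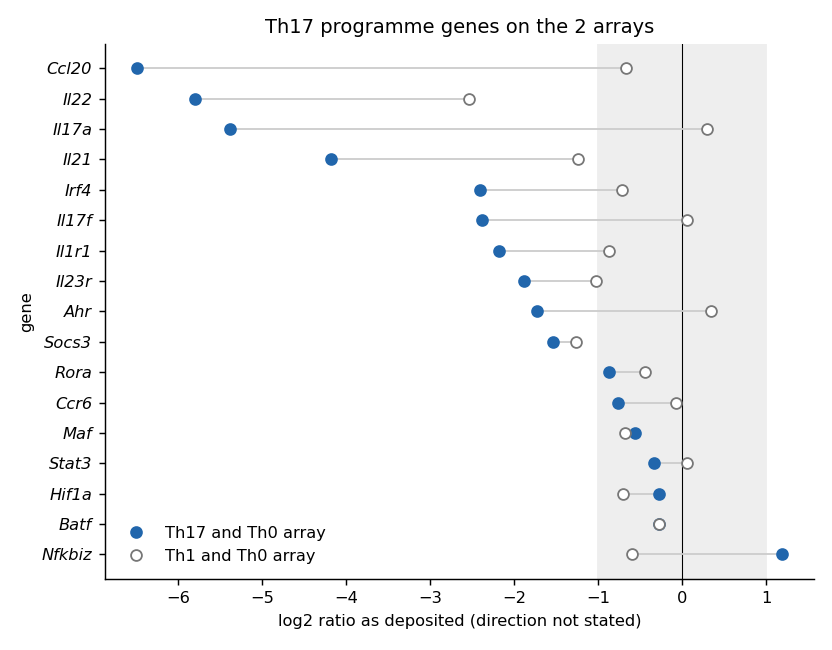
Log2 ratio of 17 genes of the Th17 programme on the Th17 and Th0 array (filled) and on the Th1 and Th0 array (open), as deposited; the grey band is the range within 2-fold. On the Th17 and Th0 array 16 of the 17 genes lie below 0 and 10 lie beyond 2-fold on that side, from Ccl20 at −6.48 to Socs3 at −1.54.

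Over the whole Th17 programme, 10 of 17 measured members were negative beyond 2-fold and 1 was positive, with a median of −1.73 against −0.03 for all genes. Transcription factors of the Th17 fate lay closer to 0 than the cytokines. Of 19 measured, 2 were counted on each side, and the median was −0.34. Irf4, which opens Th17 genes together with BATF, lay at −2.41 (5.30-fold), and Ahr, a receptor for small aromatic ligands, at −1.73. On the positive side lay Prdm1, the gene of Blimp-1, at 1.21 and Nfkbiz, the gene of the atypical inhibitor IkappaBzeta, at 1.19, but the 2 Prdm1 probes differed, at 0.39 and 2.02. Members on which the Th17 fate depends stayed within 2-fold, among them Stat3 at −0.34, Batf at −0.27, Hif1a at −0.28 and Maf at −0.56. Rora, a nuclear receptor gene, lay at −0.87 with 3 probes from −1.80 to 0.01. Of 16 factors known to restrain the Th17 fate, 1 was negative and 2 were positive. These were Nr4a1, an early factor of receptor signalling, at −1.09, Gfi1 at 1.07 and Eomes at 2.33, the latter with probes at 0.68 and 3.98. Tbx21 lay at 0.87 and Foxp3 at 0.44.

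TGF-beta is one of the signals that start the Th17 fate, and genes that respond to it mostly lay on the side of Il17a. Of 11 measured targets, 5 (45.5%) were counted there, beside 5.52% of all genes, and 0 on the other side, beside 2.90%. Their median was −0.97. Itgae, the integrin chain CD103 that binds E-cadherin of epithelium, was the gene with the most probes among these. Its 7 probes ran from −2.75 to −1.65 (mean −2.19), while on the Th1 and Th0 array they averaged 0.66. Tgfbi, a matrix protein named for its induction by TGF-beta, had probes at −2.34 and −1.70. The feedback inhibitor genes Ldlrad4 and Pmepa1 lay at −1.80 and −1.58, and Ski, which restrains Smad factors, at −1.26. The other targets were within 2-fold. Id3 lay at −0.97, Skil at −0.56, Klf10 at −0.37 and Tgif1 at −0.03, and above 0 lay Id1 at 0.12 and Id2 at 0.74. The pathway's own parts lay mostly within 2-fold: among 16 ligands, receptors and Smads, 2 were counted on the negative side and the median was −0.21. Tgfbr3, the co-receptor betaglycan, lay at −1.87, with probes at −2.74 and −1.0. Tgfb2 lay at −1.22 only through a probe with a whole-number match and turned to 0.31 without it. Tgfbr1, Tgfb1 and Tgfbr2 lay at −0.13, 0.13 and 0.76, and Smad3 at −0.39.

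Interleukin 6 acts through STAT3, and of 16 genes of that family and its signalling only Socs3, the feedback inhibitor induced by STAT3, was counted, at −1.54. The receptor genes Il6ra and Il6st lay at 0.01 and −0.60. The aryl hydrocarbon receptor pathway had 3 of 8 members negative and 0 positive, with a median of −0.41. Cyp1a1, the classical target of the receptor, lay at −3.30 (9.86-fold) on the Th17 and Th0 array and at −0.19 on the Th1 and Th0 array, and Ahr at −1.73 and 0.35. Cyp1b1, a second target, had a mean of −1.36 from probes at −2.45 and −0.28. Tiparp and Nqo1, which the receptor also induces, lay at 0.23 and 0.10, and Ahrr, its repressor, at −0.43. Of 14 retinoid pathway genes, Stra6, a retinol transporter, was the 1 counted, at −1.17.

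Signatures that divide Th17 cells by their effect in tissue differed in how their members lay. Of 16 genes of the pathogenic signature, 5 were negative and 3 positive, with a median of −0.05. Cxcl3, a ligand of the neutrophil receptor CXCR2, lay at −3.76 beside Il22 and Il23r, and Sgk1, a salt-sensing kinase gene, at −1.15. Gzmb, the gene of granzyme B, lay at 2.83 (7.13-fold), Casp1 at 1.18 and Ccl3 at 1.17, while Csf2, the gene of GM-CSF, lay at −0.06 and Il3 at −0.19. The regulatory signature had all 8 members below 0, a median of −0.58 (−0.15 with equal signals set to 0) and 3 members counted. These were Il9, a mast cell growth factor, at −4.33 (20.1-fold), Ahr at −1.73 and Il1rn, the interleukin 1 receptor antagonist, at −1.04 (probes at −1.59 and −0.49), whereas Il10 lay at −0.36. In the family of GM-CSF and interleukin 3, 0 of 11 genes were negative and 2 positive, Il5 at 1.5 and Csf2rb2 at 1.16.

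Interleukin genes as a family held many of the negative values. Of 33 genes 10 (30.3%) were negative, beside 5.52% of all genes, and 2 (6.06%) positive, beside 2.90%. The 10 included Il2, the T cell growth factor, at −2.50 (5.67-fold), and the interleukin 1 genes Il1b at −2.01 and Il1a at −1.69, whose 2 probes gave −2.81 and −0.57. On the Th1 and Th0 array Il1b lay at 0.61 and Il1a at −0.05. Il5 at 1.5 and Il23a, a subunit of interleukin 23, at 1.01 were the 2 on the positive side. Interleukin receptor genes had 5 of 36 members (13.9%) negative and 3 (8.33%) positive. The positive ones were Il2rb, a chain of the interleukin 2 and 15 receptors, at 1.65, and the interleukin 12 receptor genes Il12rb1 and Il12rb2 at 1.26 and 1.01. Across the wider interleukin 2 and STAT5 axis, 3 of 17 genes were negative and Il2rb was the 1 positive, and the feedback gene Socs2 lay at −1.37. Il2ra, the chain that makes the receptor sensitive, lay at 0.07 and Cish, a target of STAT5, at −0.40. Among the Th2 and Th9 genes, 3 of 16 were counted on each side: Il9, Irf4 and Il24 at −1.56 against Nfil3 at 1.62, Il5 at 1.5 and Gata3, the master regulator of Th2 cells, at 1.28.

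Follicular helper T cells give help to B cells. Of 13 of their genes measured, 4 were negative and 0 positive, with a median of −0.78, or −0.35 with equal signals set to 0. Beside Il21 these were Cd200, an inhibitory ligand, at −3.11 (8.65-fold), the inhibitory receptor gene Btla at −1.36 and the factor gene Tox at −1.34. Cxcr5, which guides such cells to follicles, lay at −0.78 and their master regulator Bcl6 at −0.30, so the defining pair stayed within 2-fold. The list had a median of −0.68 on the Th1 and Th0 array too, where 2 of 13 were negative, beside 6.92% of all genes there.

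Chemokine ligand genes lay on both sides. Of 36 genes, 7 (19.4%) were negative and 5 (13.9%) positive, with a median of −0.04. Of the ligands of CXCR2, which attract neutrophils, Cxcl3 lay at −3.76 (13.5-fold), Cxcl2 at −1.49 and Cxcl1 at −1.10, while Cxcl15 at −0.24 and Cxcl5 at 0.34 were within 2-fold. Cxcl2 lay on the other side, at 1.04, on the Th1 and Th0 array. Of the ligands of CCR2, which attract monocytes, Ccl2 lay at 4.06 (16.7-fold), Ccl8 at 2.90 and Ccl7 at 2.30, and Ccl12, at 0.60, was within 2-fold. Xcl1, made by cytotoxic cells, lay at 1.80 with a whole-number match, and Ccl17, a ligand of CCR4, at −1.72. Of 21 chemokine receptors 3 were negative and 4 positive. Ccr7, which leads T cells into lymph nodes, lay at −2.25, Cxcr4, a bone marrow homing receptor, at −1.49 and Ccr9, a gut homing receptor, at −1.20. Ccr2 lay at 2.16, Cxcr3, typical of Th1 cells, at 1.34, and the myeloid receptor genes Cxcr2 and Cx3cr1 both at 1.18.

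Ligands of the TNF family had 5 of 16 members (31.3%) negative, 1 positive and a median of −0.54. The median came within 0.5 of 0 when values were centred on the probe median, and was −0.12 with equal signals set to 0. The negative ones were Tnfsf8, the ligand of CD30, at −1.92, the lymphotoxin genes Lta and Ltb at −1.82 and −1.67, Tnfsf4, the ligand of OX40, at −1.33, and Tnfsf11, the bone-resorbing ligand RANKL, at −1.17. Fasl, the death ligand of cytotoxic cells, lay at 1.49. The family's receptors had 6 of 27 (22.2%) negative and 2 positive, with both probes agreeing for Tnfrsf13b (−2.07 and −1.89), the gene of TACI, and for Fas (−1.85 and −1.42). Tnfrsf11b, which encodes osteoprotegerin, the decoy that binds RANKL, lay at 2.92 (7.55-fold), opposite to Tnfsf11.

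Cytotoxic granule genes had the highest median of the lists, at 2.21, with 13 of 20 positive and 0 negative. The granzyme genes of one cluster in the genome all lay beyond 2: Gzmg at 4.03, Gzmc at 3.69, Gzmn at 3.68, Gzmd at 3.51, Gzme at 3.24, Gzmb at 2.83 and Gzmf at 2.49. These genes are close copies, so their probes may share signal. Gzmk and Gzma, from another locus, lay at 4.50 (22.6-fold) and 2.03, and Prf1, the pore-forming perforin gene, at 3.24. Some parts of the secretory machinery that many cells use were nearer to 0, with Lamp1 at −0.06, Srgn at −0.22 and Unc13d at 0.32. Rab27a, another part of it, was counted as positive at 1.05. On the Th1 and Th0 array 9 of the 20 genes were positive, beside 3.27% of all genes there, and their median was 0.74.

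Serpin genes as a family were not far out, with a median of −0.06. Of 49 genes 4 (8.16%) were negative and 3 (6.12%) positive, beside 5.52% and 2.90% of all genes. The 3 positive ones were all intracellular B-clade serpins, but that clade was not limited to the positive side. Its genes Serpinb9d, Serpinb7 and Serpinb3a were negative, at −2.36, −1.95 and −1.84, Serpinb3a with a whole-number match on 1 of 2 probes. The positive ones were Serpinb9b at 5.61 (48.9-fold), Serpinb6b at 4.08 and Serpinb9, the inhibitor of granzyme B, at 3.83. On the Th1 and Th0 array these 3 lay at 3.01, 2.59 and 2.42. The 3 positive genes lie next to each other in the genome. Their further neighbours differed: Serpinb1b lay at 0.99, Serpinb9c at 0.01 and Serpinb9d at −2.36.

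The Th1 programme lay in the same direction: 7 of 18 genes were positive and 1 negative, and the median was 0.57. Havcr2, the inhibitory receptor Tim-3, lay at 3.23 (9.37-fold), Nkg7, a granule membrane protein, at 2.39 with probes at 1.85 and 2.92, and the kinase gene Txk at 2.22. The gene that defines these cells did not follow, since Ifng lay at −0.83, and Lta, at −1.82, was the negative member. On the Th1 and Th0 array 6 of the 18 were negative and 3 positive, beside 6.92% and 3.27% of all genes there. Interferon-stimulated genes had 0 of 29 negative and 3 positive, with a median of 0.07: Irf8 at 2.30, the exonuclease gene Isg20 at 1.63 and Mx1 at 1.01.

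**Figure D3:**
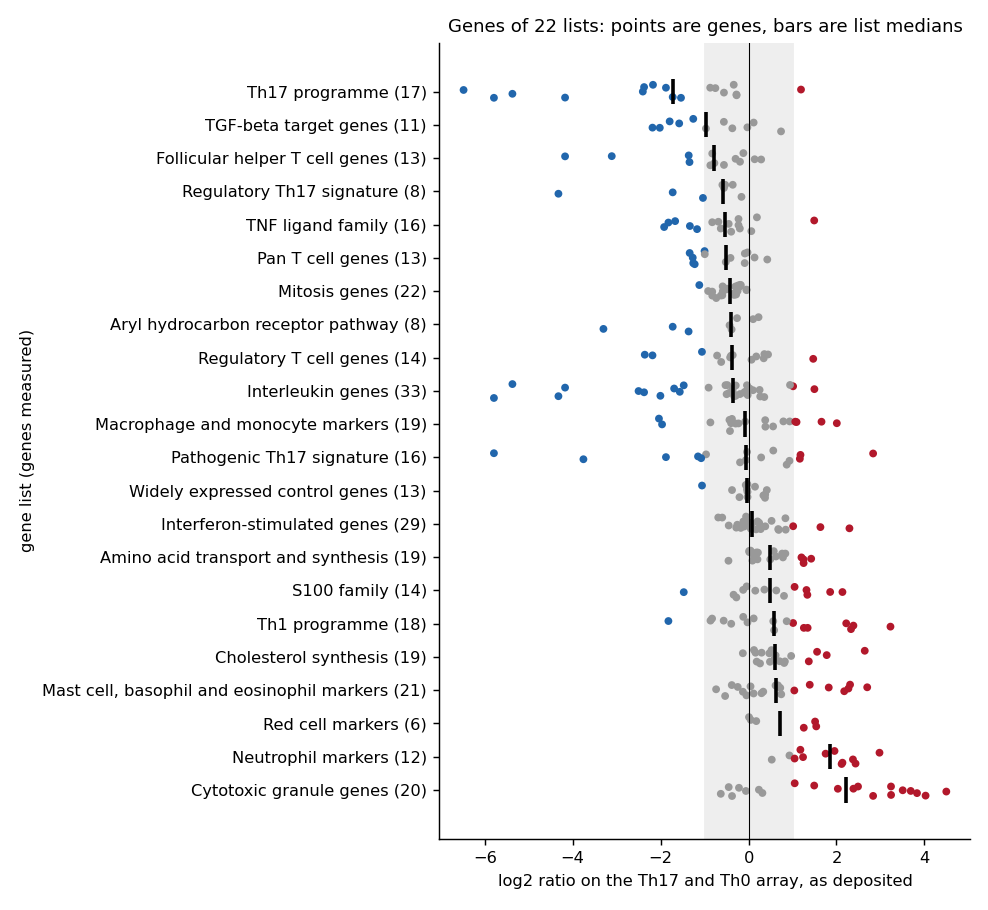
Log2 ratio on the Th17 and Th0 array of every measured gene (points) of 22 lists, with the list median as a black bar; blue and red points are 2-fold or more apart, to the negative and the positive side, and the grey band is the range within 2-fold. The Th17 programme has its median at −1.73 and cytotoxic granule genes at 2.21, while the widely expressed control genes sit at −0.02.

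Of 13 pan T cell genes 5 were negative and 0 positive. Their median of −0.52 did not keep its distance of 0.5 under any of the 3 other centrings and was −0.09 with equal signals set to 0. The 5 were Cd5 at −1.34, the co-receptor gene Cd4 at −1.27, Cd2 at −1.26, the adaptor gene Lat at −1.23 and Cd3d at −1.0, which also fell within 2-fold under those centrings. Other parts of the same receptor complex lay near 0 or above it, with Cd247 at −0.09, Cd3e at 0.14 and Cd3g at 0.43. Bcl11b, a factor that keeps T cell identity, had 3 probes between −1.60 and −1.34. Naive and resting T cell genes were mixed, with 4 of 16 negative and 2 positive and a median of −0.46. Ccr7 at −2.25, the repressor gene Bach2 at −1.29 and S1pr1, the receptor for exit from lymph nodes, at −1.27 contrasted with Ly6c1 at 3.22 (9.30-fold) and Btg2 at 1.09. Regulatory T cell genes had 3 of 14 negative and 1 positive. The ectoenzyme genes that act in sequence to make adenosine lay on opposite sides: Entpd1, whose product CD39 degrades ATP, had probes at 1.21 and 1.73, and Nt5e, whose product CD73 completes the conversion, lay at −2.36 (5.14-fold). The wider list of purine receptors and ectoenzymes had 1 of 11 negative and 3 positive, with the receptor gene P2ry12 at 3.26.

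Receptors that appear on activated T cells lay on both sides, with 6 of 19 negative, 4 positive and a median of −0.08. Cd200 and Btla were joined on the negative side by Slamf1 at −1.33, the checkpoint genes Lag3 at −1.08 and Ctla4 at −1.06, and Tnfrsf4, the gene of OX40, also at −1.06. On the positive side, beside Havcr2, lay Cd244a at 1.96 and Cd160 at 1.39, both better known from NK cells, and Tnfrsf9, the gene of 4-1BB, at 1.10, though its probes differed in sign (−0.50 and 2.70). Pdcd1, the gene of PD-1, lay at −0.12, Icos at 0.29 and Cd69 at 0.62. Early factors of receptor signalling were near 0 as a group, with 2 of 19 negative and 1 positive: Batf3 at −1.25 and Nr4a1 at −1.09 against Fosb at 1.07. Of 14 NF-kappaB genes 1 lay on each side, the inhibitor genes Nfkbia at −1.56 and Nfkbiz at 1.19. Feedback genes of the SOCS, DUSP and Sprouty families had 2 of 37 negative and 3 positive, with Spry2, an inhibitor of growth factor signalling, at 2.52. In the BCL-2 family Pmaip1, the gene of the death protein Noxa, was the 1 of 15 counted, with 3 probes from −1.68 to −1.09. The lymphocyte GTPase genes of the Gimap family had 0 of 8 counted and ran from −0.43 to 0.64.

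Markers of other cells moved with the comparison as well, mostly on the positive side. A ratio gives no level, so the array cannot show which cells were present, and fewer cells of a type cannot be told apart from less RNA per cell. Neutrophil markers had all 12 members above 0, 10 of them beyond 2-fold, with a median of 1.85. The granule genes Mpo (3 probes from 2.29 to 3.74), Ngp at 2.43, Lcn2 at 2.38 and Camp at 2.12 were the furthest beside S100a9 at 2.14. Markers of mast cells, basophils and eosinophils had 7 of 21 positive and 0 negative, with a median of 0.61: Prg2, an eosinophil granule protein, lay at 2.70, the stem cell factor receptor Kit at 2.31, Tpsb2, a mast cell tryptase, at 2.27 and Hdc, which makes histamine, at 2.18. Fcer1a and Ms4a2, the receptor chains for immunoglobulin E that define mast cells and basophils, lay at 0.61 and −0.05. Red cell markers had 3 of 6 positive and a median of 0.72, all 3 being globin genes. Macrophage and monocyte markers were divided, with 2 of 19 negative and 4 positive and a median of −0.08. Cd14 at −2.04 and Marco, a scavenger receptor, at −1.97 lay opposite to the complement genes C1qb at 2.01 and C1qc at 1.66 and the adaptor genes Tyrobp at 1.09 and Fcer1g at 1.06. On the Th1 and Th0 array the medians of the neutrophil, mast cell and macrophage lists were 1.34, 1.85 and 1.57. The part of such cells in the values of cytokine, chemokine, granzyme and T cell genes was not tested.

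Other marker lists stood nearer to 0. Of 11 B cell markers Cr2 alone was counted, at −1.25, and Cd79a, Ms4a1 and Pax5 lay between 0.14 and 0.34. In the CD8 T cell and NK cell list, Cd8a lay at 0.03 and Cd8b1 at −0.16, while the NK receptor genes Klrb1c at 3.72, Klrg1 at 2.99, Cd160 at 1.39 and Klra3 at 1.15 were positive and Klrc1, at −2.17, was the 1 of 12 negative. Dendritic cell markers had 3 of 11 negative, led by Flt3, a growth factor receptor, at −2.80, and Cd209a as the 1 positive, at 1.12. Class II antigen presentation genes had 2 of 12 negative, Cd86 (probes at −2.03 and −1.84) and Cd83 at −1.10, whereas H2-Ab1 lay at −0.23 and Cd74 at −0.15. Of 14 class I genes H2-Q10 was the 1 counted, at 3.99. The S100 family had 5 of 14 positive and 1 negative (S100b at −1.47), with S100a4 at 1.86 and S100a10 at 1.34. Among 4 measured sex-linked genes, Xist lay at −0.21, Uty at 0.08, Kdm5d at 0.24 and Eif2s3y at 0.99.

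Adhesion and tissue genes completed the picture at the cell surface. Of 27 integrin chains Itgae was the 1 negative, and Itga1, part of the collagen receptor CD49a, at 1.56 and Itgav at 1.27 were positive. Matrix metalloproteinases and their inhibitors had 7 of 25 negative and 2 positive. The inhibitor genes Timp1 and Timp2 lay at −2.13 and −1.64 and Mmp14 at −1.43, against the collagenase gene Mmp13 (probes at 1.41 and 1.66) and the gelatinase gene Mmp9 at 1.24, while Mmp1b, at −5.38, had a whole-number match. Cathepsins and their inhibitors had 2 of 28 negative, Ctsh at −1.09 and Ctsk at −1.02, and 1 positive, the neutrophil protease gene Ctsg at 2.70. Receptors for S1P and other lipid mediators had S1pr1 as the 1 of 21 counted. Toll-like and NOD-like receptors had 3 of 27 negative, all of them Nlrp genes better known from the germline (Nlrp2, with a whole-number match, Nlrp4a and Nlrp4c), while Tlr2 lay at −0.92. Of 23 Notch, Wnt and Hedgehog genes, Gli1 lay at −1.20 and Wnt10b at 2.78, the latter with probes at 1.40 and 4.16.

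Among metabolic lists, cholesterol synthesis had 18 of 19 genes above 0, 4 positive, 0 negative and a median of 0.59. Hmgcs1, which catalyses an early step, lay at 2.64, and the later enzyme genes Msmo1 and Idi1 at 1.78 and 1.56. Cyp51 had probes at 1.34 and 1.40, and Srebf2, the regulator of the pathway, lay at 0.81. On the Th1 and Th0 array the cholesterol list had a median of 0.38, with 3 of 19 positive, beside 3.27% of all genes there. Of 14 fatty acid synthesis genes Me1, which supplies NADPH, was the 1 counted, at 1.74. Genes for amino acid uptake and synthesis likewise had 18 of 19 above 0, 4 positive and 0 negative, with a median of 0.49: Asns at 1.42, Psat1 and the leucine transporter gene Slc7a5 both at 1.25 and Slc7a3 at 1.20 (probes at 0.15 and 2.25). In the related unfolded protein and amino acid response, Eif2ak3, the gene of the stress kinase PERK, at 2.43 and Hspa5 at 1.19 were the 2 of 17 counted. Glycolysis and glucose transport had a median of −0.01 over 17 genes, and Slc2a3, the transporter GLUT3, was the 1 counted, at 1.80, while Slc2a1, the transporter GLUT1, lay at −0.75. Hypoxia response genes had 2 of 14 negative, Adm at −2.34 and Egln3 at −1.02. Of 19 oxidative stress genes Hmox1 was the 1 counted, at −1.17.

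Large housekeeping complexes gave the narrowest values. Cytosolic ribosomal protein genes had 0 of 68 counted and a median of −0.19, with 52 below 0, and mitochondrial ones had 0 of 74 counted and a median of 0.14. The respiratory chain and ATP synthase had 1 of 78 counted and a median of 0.18, the proteasome 1 of 47 and 0.23, and tRNA synthetases 1 of 32 and 0.19. Chaperones had 5 of 81 (6.17%) counted on each side, beside 5.52% negative and 2.90% positive of all genes. The mitochondrial co-chaperone gene Dnajc15 lay at 2.12. Chromatin modifying enzymes had 1 of 71 counted, with values from −0.54 to 1.03. Genes of cell division lay slightly below 0: all 22 mitosis genes were negative in sign with a median of −0.42, but only Kif11, a spindle motor gene, at −1.12, was beyond 2-fold, and 0 of 26 DNA replication genes were (median −0.18). When equal signals are set to 0 the median of the mitosis genes becomes 0.01, that of the replication genes 0.25 and that of the cytosolic ribosomal proteins 0.24, so no side is given to them. Under the same setting the medians of the respiratory chain, proteasome, mitochondrial ribosome, tRNA synthetase and chaperone lists become 0.61, 0.66, 0.57, 0.62 and 0.58. The mitosis and replication lists had medians of 0.23 and 0.43 on the Th1 and Th0 array. Of 20 cell cycle regulators Mycn at 2.70 and Cdkn2a, with 3 probes from 0.97 to 2.70, were positive and 0 were negative. Control genes in wide use had a median of −0.02 over 13 genes, and Tfrc, the transferrin receptor gene, was the 1 counted, at −1.06.

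**Figure D4:**
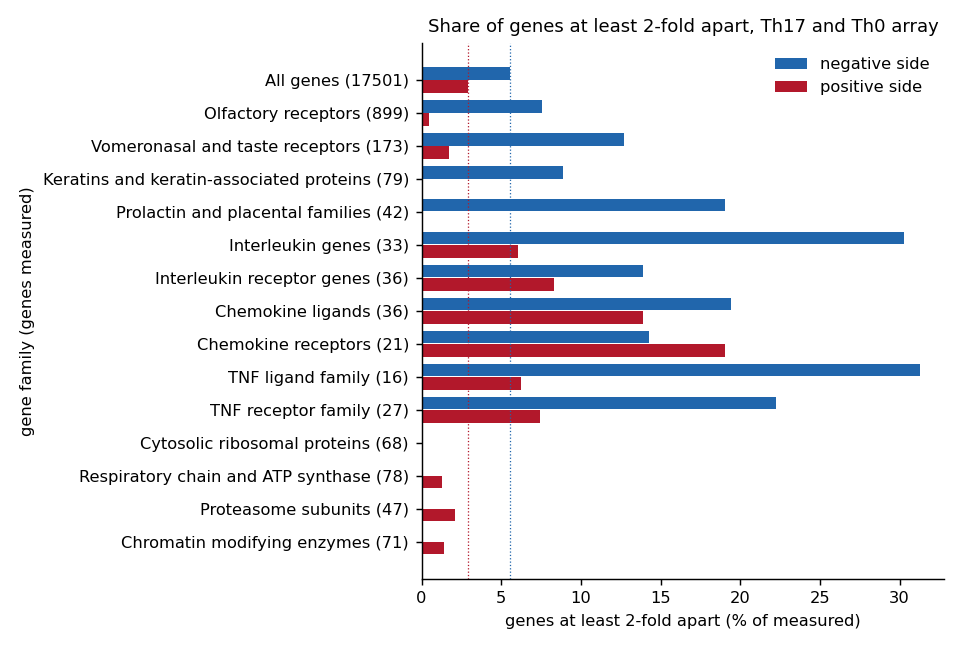
Share of measured genes beyond 2-fold, with negative genes in blue and positive ones in red, on the Th17 and Th0 array, for all genes and 14 families; dotted lines mark the shares of all genes, 5.52% and 2.90%. Interleukin genes reach 30.3% on the negative side, and olfactory receptors have 7.56% negative and 0.44% positive.

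Families best known from other tissues (nose, tongue, skin and placenta) also held negative genes. Of 899 olfactory receptor genes 68 (7.56%) were negative and 4 (0.44%) positive. Vomeronasal and taste receptors had 22 of 173 (12.7%) and 3, keratins 7 of 79 (8.86%) and 0, and prolactin and placental families 8 of 42 (19.0%) and 0. Together 105 of 1193 genes (8.80%) were negative, above the 5.52% of all genes, and 7 (0.59%) positive, below the 2.90%. Of the 105, 29 (27.6%) had a whole-number match. The part of dim spots in the groups described above was not tested.

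Genes with several probes offer the only repeat measurement. Of 5886 such genes, 68 (1.16%) had every probe beyond 2-fold on the side of Il17a and 38 (0.646%) on the other, while by their means 215 and 103 were counted. The pooled SD between probes of a gene was 0.50 over genes with fewer than 20 probes. For the 15 genes with 20 or more probes, the SD per gene ran from 0.12 to 0.39 and the means from −0.32 to 0.42. Beside Itgae, Il1r1, Tgfbi, Cd86, Tnfrsf13b and Iltifb, the 15 leading genes of this kind on the side of Il17a held Olr1, a scavenger receptor for oxidised LDL, at −2.88, the carboxypeptidase gene Cpd at −2.42 (probes at −2.53 and −2.31) and Sirpb1a, with 3 probes between −2.18 and −2.12. They also held Myo3b at −2.52, Syt11 at −2.27, Tmeff2 at −2.08, Tnfrsf25, the death receptor DR3, at −1.95 and Chrdl1 at −1.89. Kcnmb2, at −2.81, had a whole-number match on 1 of 2 probes.

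On the positive side the 15 leading genes with several probes began with Sema6d, an axon guidance gene, at 3.30, Gzme at 3.24 (probes at 3.22 and 3.27) and Mpo at 2.98. Car2, a carbonic anhydrase, had probes at 2.55 and 3.13, Gpx8 at 2.42 and 3.06 and the adhesion gene Cntn1 at 2.12 and 2.86. Igf2bp3, an RNA-binding protein gene, lay at 1.93 and Nabp1, a single-strand DNA-binding protein gene, at 2.23. On the Th1 and Th0 array they lay at −0.10 and −0.18, but all others of the 15 lay above 0 there. Car2 was the furthest of them, at 2.40, then Sema6d and Cntn1, both at 2.34. Only Abcb9, Nkg7 and Igsf5 of these others were within 2-fold there, where 3.27% of all genes were positive beyond 2-fold. Abcb9, a lysosomal peptide transporter, had 4 probes from 1.37 to 2.87. Beside Nkg7 and Wnt10b the rest were Igsf5 at 2.33, Tmem273 at 2.22, Atp1b1 at 2.14 and Brdt at 1.87.

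**Figure D5:**
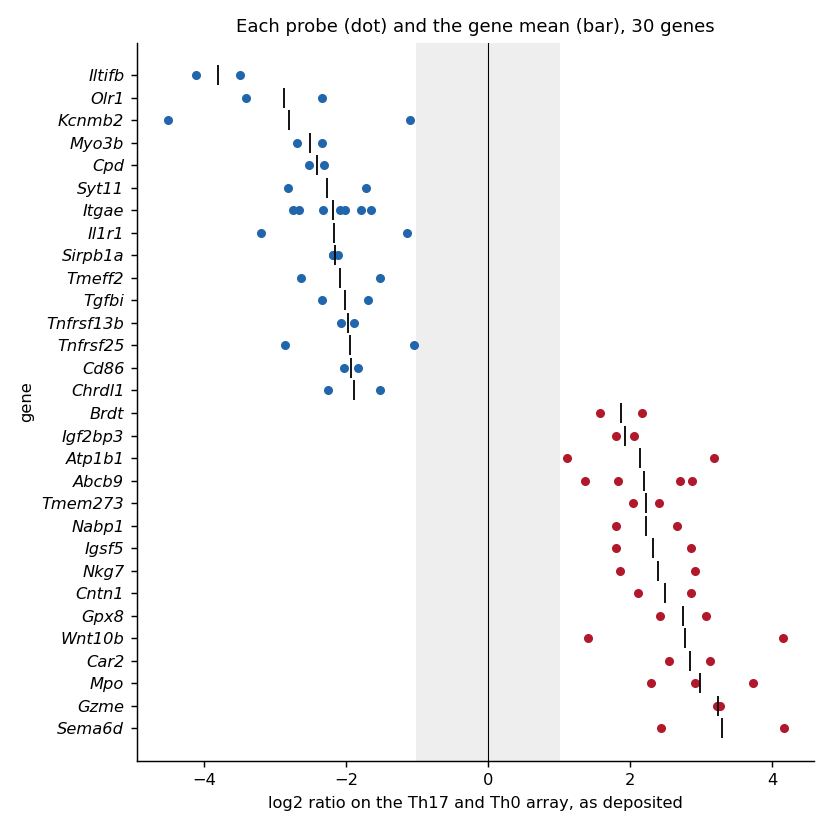
Log2 ratio of each probe (dots) and the mean (black bar) on the Th17 and Th0 array for the 15 genes with the largest mean on each side among genes whose every probe was at least 2-fold on that side; the grey band is the range within 2-fold. The 7 Itgae probes span −2.75 to −1.65, and the 3 Sirpb1a probes lie within −2.18 to −2.12.

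The single most distant genes differed in kind between the sides. Of the 20 lowest, 16 had a whole-number match with a weaker channel of 1 unit. That leaves Ccl20, Il22, Il17a and Gdf6, a growth factor of skeletal development, at −4.97. For Ccl20, Il22 and Il17a the search stopped before 5 units. The 16 ran from Olfr181 at −6.77, where the match was 81 units to 1, through Vip at −5.89 (44 to 1), to Krt20 at −4.75 (20 to 1). Between them lay Olfr1233, Nsun7, Olfr1284, Olfr944, Mmp1b, Cyp2j6, Fyb2, Pcdhb11, Mrgprb4, Nlrp2, Trim6, Vmn1r10 and Nhlh2. None of the 20 highest had a match. They held, beside 5 granzyme and 3 serpin genes, Dsc2, a desmosomal cadherin, at 5.79, Dixdc1, a Wnt pathway gene, at 5.02, Tmsb15a at 4.22, Ccl2 at 4.06, Afp, the alpha-fetoprotein gene, at 4.01, H2-Q10 at 3.99, Btnl9 at 3.81, Klrb1c at 3.72, Khdc1a at 3.47, the complement inhibitor gene Cd55 at 3.43, Sidt1 at 3.34 and Hopx at 3.31. On the Th1 and Th0 array all of the 20 highest but Hopx and Ccl2 were positive beyond 2-fold, beside 3.27% of all genes there. Dixdc1 lay at 5.04, Dsc2 at 3.39 and Serpinb9b at 3.01 there, whereas Ccl2 lay at 0.95 and Hopx, a homeodomain cofactor, at −0.97. Both arrays name Th0 RNA, so their values need not be independent, and the overlap was not tested.

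Neighbours of the leading genes, by their order in the GRCm38.p6 annotation, showed how far each local pattern reached. Next to Il17a and Il17f lay Mcm3 at −0.70 and Paqr8, a membrane progesterone receptor gene, at −1.55 with 2 probes, and on the other flank Pkhd1 at −0.26. Ccl20 had Daw1, a dynein assembly factor gene, at −2.14 on one flank and Slc19a3, 2 places away on the other, at 0.03. Il21 sits beside Il2 at −2.50 and Cetn4 at −0.89, with Adad1 at −0.18 beyond Il2. Beside Il22 and Iltifb, Ifng lay at −0.83 and Dyrk2 at 0.39. Il23r and Il12rb2, adjacent genes for receptor chains of related cytokines, lay on opposite sides at −1.88 and 1.01. In the cluster of interleukin 1 receptor genes, Il1r1 at −2.17 stood between Il1r2 at −0.63 and Il1rl2 at −0.83, followed by Il18r1 at −0.57 and Il18rap at 0.58. Cd200 and Btla are neighbours too, at −3.11 and −1.36. The last gene of the granzyme cluster, Gzmb, borders Atp12a at −0.07.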

How the data were processed

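The deposited table gives 1 log2 value per probe and array for 36547 probes. The authors' steps from scan to ratio, including scanner, background correction and normalisation, are not given in the sources used here, and the unit was read from the values. Per the labels' protocols, column-purified total RNA (500 ng) was amplified with amino allyl labelling. Of the probes, 26926 named 1 gene, 203 several and 9418 none in the platform annotation. Symbols were checked through gene numbers against GRCm38.p6 (26774 matched, 152 kept the platform's symbol).

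Probes were averaged per gene, and genes at least 2-fold apart were counted. A list was said to lie on a side when its median was at least 0.5 from 0. Whole-number signals were searched with the array's constant, allowing for a ratio rounded to 5 decimals and a value rounded to 4, an allowance chosen after the values were seen and tested on simulated data. The search stopped where the summed odds of a match by coincidence passed 0.2, so the most negative values were not searched up to 5 units. Neighbours and some list definitions were also settled after values were seen. The members, the 75 lists and the rules were chosen with earlier results of these data known. Named genes were the markers, the 20 most distant genes per side, the 15 per side with every one of several probes beyond 2-fold, clone names left out, and up to 5 members of each list, with others for their role. Python 3.11.15, pandas 2.3.3, NumPy 2.4.6 and matplotlib 3.10.9 were used. Other centrings, probe summaries, a filter on dim probes and higher thresholds were tried as alternatives.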

Additional observations from a re-analysis of the deposited data

Results flagged for a closer look

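Probes outside the gene table held values at least 2-fold apart as well. Of 9418 probes with no gene name here, 995 (10.6%) were so on the Th17 and Th0 array. The share was 8.42% for the named genes, whose values are means over probes, so the 2 shares are not on the same footing. Of the 995, 814 were negative and 181 positive, with values from −6.62 to 6.03. A whole-number match was found for 179 of the 995. No gene can be given for them, and their source was not tested.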

How the results depend on the processing

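No paired analysis was possible because the comparison has 1 array. Centring on the probe median, centring on the control genes, taking the probe median per gene, leaving out genes whose probes differ in sign and leaving out probes with a weaker channel of at most 5 units gave 793 to 955 negative and 496 to 547 positive genes. Setting equal signals to 0 gave 486 negative and 1429 positive genes (25.4% negative), a change made by adding 0.43 to every value. The median of the control genes then lay at 0.40. At thresholds of 1.5 and 2 the counts were 442 and 220 negative and 208 and 116 positive, as fewer genes can pass. Of the 12 lists with a side, 8 were still past 0.5 when equal signals were set to 0, when follicular helper, pan T cell, regulatory Th17 and TNF ligand genes were not, and 14 other lists then passed 0.5. Under each other alternative 10 or more of the 12 did. None of the 12 changed sign. Leaving out genes whose probes differ in sign moved the median of red cell markers to 1.39 and of control genes to −0.72, as fewer genes remained. Tgfb2 turned to 0.31 without dim probes. Of 234 named genes beyond 2-fold, 34 fell within it with equal signals at 0. Depth of signal is unknown beyond the whole-number matches.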
